A study of Mus musculus with 2 samples.

Results

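The heavy chain variable segments (Ighv genes) that B lineage cells of the mouse colon transcribed were counted, cell by cell, in a pair of single-cell RNA libraries. Every gene whose symbol begins with Ighv was taken, which gave 185 genes of the 32285 in the count matrices. A barcode entered the B or plasma class when it held at least 1 unique molecular identifier (UMI, a tag for 1 captured RNA molecule) of Cd79a or Mzb1. Cd79a encodes a signalling chain of the B cell receptor, and Mzb1 a chaperone of antibody-secreting cells. This class held 4634 of 15270 barcodes in the CD163_FL library and 5716 of 10390 in CD163_NC. A cell was assigned to a segment when its leading Ighv gene held at least 80% of its Ighv UMIs, which applied to 1918 cells of CD163_FL and 2508 of CD163_NC.

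The study compared immune cells of the gut lamina propria, the tissue layer under the epithelium, with 1 library for each label, CD163_FL and CD163_NC. Its title names wild-type mice and mice that lack CD163+ macrophages, but the labels do not tie either library to a genotype, and none is assigned here. Both libraries held colon cells labelled CD45+, CD45 being a protein on the surface of leukocytes, taken from the interphase of a Percoll gradient and sorted without 7-AAD-stained dead cells. The labels used here do not state strain, sex, age or how many mice were pooled. With 1 library per group there is no spread between animals and no test, and every interval is a 95% interval that covers counting error only. Cells of 1 expanded clone share a segment, so cells are not independent draws either.

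A B cell builds its heavy chain gene by joining 1 V segment to a D and a J segment. The joined V promoter is then the active one, and allelic exclusion leaves most cells with a single productive heavy chain. Plasma cells transcribe that gene at very high levels. In the gut most of them have switched to the Igha constant region and secrete IgA joined by J chain. Which V segment a cell uses is inherited by all its daughters, so an expanded clone raises the share of its segment.

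The 185 genes lay on chromosome 12 between 113572927 and 116010093 (mm10), 183 of them on the minus strand and 2 on the plus strand. They ran over 2437 kb, from Ighv5-1, nearest to the D and J segments, to Ighv1-86, the most distant. The annotation calls 113 of them V genes, 70 V pseudogenes and 2 IG_LV_gene. Germline sequences of 5 segments are shown because the comparisons below turn on them: Ighv1-81 led the IgA cells of CD163_FL, Ighv1-80 was most often found with it in 1 barcode, Ighv1-72 led CD163_NC, Ighv1-53 had the highest ratio between the libraries, and Ighv9-4 had 1 light chain partner in all its paired cells of CD163_FL. They are the last 294 bases, from base 58, of the coding part of the GENCODE M21 transcripts, which is the V region without its leader, 5′ to 3′ on the minus strand. Capitals mark the bases of Ighv1-80, Ighv1-72 and Ighv1-53 that differ from Ighv1-81 in a pairwise alignment. Ighv9-4, of another family, is shown without capitals.
Ighv1-81: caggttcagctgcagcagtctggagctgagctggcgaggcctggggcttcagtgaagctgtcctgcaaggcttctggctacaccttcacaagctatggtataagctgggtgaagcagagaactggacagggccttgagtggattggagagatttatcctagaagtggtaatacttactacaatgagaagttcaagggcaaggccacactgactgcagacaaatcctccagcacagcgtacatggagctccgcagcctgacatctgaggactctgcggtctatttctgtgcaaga
Ighv1-80: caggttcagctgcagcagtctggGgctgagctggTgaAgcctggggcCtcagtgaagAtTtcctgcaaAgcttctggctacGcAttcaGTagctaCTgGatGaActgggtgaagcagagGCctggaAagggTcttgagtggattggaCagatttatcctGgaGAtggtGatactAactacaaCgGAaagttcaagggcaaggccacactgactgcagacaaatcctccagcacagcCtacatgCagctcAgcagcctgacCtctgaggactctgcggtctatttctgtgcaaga
Ighv1-72: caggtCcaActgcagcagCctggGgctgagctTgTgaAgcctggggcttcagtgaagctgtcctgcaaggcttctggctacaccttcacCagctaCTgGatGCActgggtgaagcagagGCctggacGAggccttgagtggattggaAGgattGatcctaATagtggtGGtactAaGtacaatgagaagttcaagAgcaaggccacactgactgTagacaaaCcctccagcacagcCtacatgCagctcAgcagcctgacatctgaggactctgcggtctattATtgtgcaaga
Ighv1-53: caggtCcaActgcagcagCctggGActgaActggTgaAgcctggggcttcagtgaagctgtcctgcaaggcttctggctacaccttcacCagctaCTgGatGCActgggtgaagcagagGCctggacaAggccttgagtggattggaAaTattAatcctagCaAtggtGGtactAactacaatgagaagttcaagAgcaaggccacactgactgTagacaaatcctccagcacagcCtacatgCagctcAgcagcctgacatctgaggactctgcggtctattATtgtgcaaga
Ighv9-4: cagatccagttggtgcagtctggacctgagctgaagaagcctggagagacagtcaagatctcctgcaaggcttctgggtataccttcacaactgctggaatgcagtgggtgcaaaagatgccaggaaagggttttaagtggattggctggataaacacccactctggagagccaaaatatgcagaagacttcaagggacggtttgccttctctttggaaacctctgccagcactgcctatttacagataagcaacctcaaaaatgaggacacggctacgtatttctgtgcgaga
The genes lie at chr12:115920279-115920712 (Ighv1-81), chr12:115912344-115912776 (Ighv1-80), chr12:115757984-115758461 (Ighv1-72), chr12:115158403-115158835 (Ighv1-53) and chr12:114299961-114300389 (Ighv9-4). In the stretch shown, 33 bases of Ighv1-80, 35 of Ighv1-72 and 33 of Ighv1-53 differ from Ighv1-81. Over the whole coding part of 351 bases, Ighv1-80 differs at 38 and Ighv1-72 at 51, and Ighv9-4 shares 65.2% of its aligned bases with Ighv1-81. Ighv1-53 and Ighv1-72 are closer to each other, with 16 differing bases. Among the 103 segments assigned to at least 1 cell, the closest of all the other Ighv genes had a median identity of 95.4%, and 52 had one at 95% or more. For Ighv1-72 it was Ighv1-62-3, at 99.1%. Reads from such near copies may be split between them or lost, and mutated V genes may align to a relative, so counts of close neighbours are uncertain.

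Ighv transcripts were concentrated in the B or plasma class. CD163_FL held 33051 Ighv UMIs and CD163_NC 57908, of totals of 131306539 and 94729872 UMIs for CD163_FL and CD163_NC. The B or plasma barcodes held 97.0% of the Ighv UMIs in CD163_FL and 98.0% in CD163_NC. Of the 185 genes, 112 were detected in CD163_FL and 122 in CD163_NC. A total of 2073 B or plasma barcodes in CD163_FL and 2829 in CD163_NC had any Ighv UMI. Among barcodes with at least 3 Ighv UMIs, a single segment reached 80% in 92.7% (91.4 to 94.0) of 1598 in CD163_FL and 90.3% (88.8 to 91.6) of 1750 in CD163_NC.

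Most of the assigned cells with several Ighv UMIs showed 1 segment and nothing else. Of the 1482 such cells of CD163_FL with at least 3 Ighv UMIs, 72.6% had UMIs of 1 segment alone, and of the 1580 of CD163_NC, 60.9% did. These cells carried a median of 14 Ighv UMIs in CD163_FL and 24 in CD163_NC, at median totals of 19372 and 19229.5 UMIs in CD163_FL and CD163_NC. Derl3, an endoplasmic reticulum gene of secretory cells, was detected in 86.7% of them in CD163_FL and 85.5% in CD163_NC. Across all B or plasma barcodes it was detected in 36.4% in CD163_FL and 30.6% in CD163_NC. Among T cell barcodes it was detected in 2.91% in CD163_FL and 3.17% in CD163_NC. The B cell gene Ms4a1, which encodes CD20, was detected in 3.58% in CD163_FL and 10.0% in CD163_NC. The values just beside the 80% limit were few: 37 barcodes in CD163_FL and 33 in CD163_NC had a leading share of 75% to under 80%, and 37 in CD163_FL and 53 in CD163_NC one of 80% to under 85%.

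A large group of assigned cells rested on a single UMI, and free RNA in the suspension gives such UMIs to any barcode. T cell barcodes (at least 2 summed Cd3d, Cd3e and Cd3g UMIs and no Cd79a or Mzb1) should lack Ighv transcripts, yet 8.45% (7.76 to 9.18) of 6023 in CD163_FL and 18.7% (17.2 to 20.3) of 2553 in CD163_NC had at least 1. At least 3 Ighv UMIs were found in 6 T cell barcodes of CD163_FL and 9 of CD163_NC. T cell barcodes had a median of 7217 UMIs in CD163_FL and 5723 in CD163_NC, against 8784.5 and 7465 in the B or plasma barcodes of CD163_FL and CD163_NC. The assigned cells with exactly 1 Ighv UMI numbered 358 in CD163_FL and 871 in CD163_NC, and these cannot be told apart from free RNA. The leading segments of the T cell barcodes were Ighv1-81 with 43 UMIs in CD163_FL and Ighv8-8 with 39 in CD163_NC. Values for cells with at least 3 Ighv UMIs are therefore given beside several of the main ones.

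**Figure D1:**
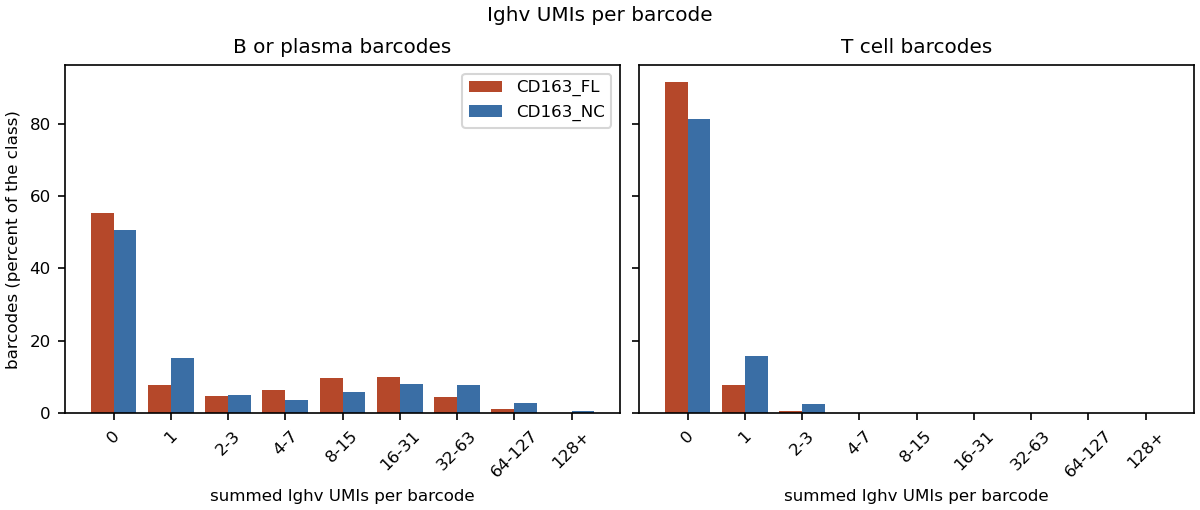
Summed Ighv UMIs per barcode (x axis, classes of UMIs) in B or plasma barcodes and in T cell barcodes, as a percentage of the barcodes of each class (y axis) in CD163_FL and CD163_NC. T cell barcodes hardly pass 3 UMIs, while B or plasma barcodes reach the highest class.

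The share of B or plasma barcodes that could be assigned was 41.4% (40.0 to 42.8) in CD163_FL and 43.9% (42.6 to 45.2) in CD163_NC. With at least 3 Ighv UMIs the order was the other way round, at 32.0% in CD163_FL and 27.6% in CD163_NC. At 1000 UMIs in every barcode, with 562 shallower barcodes left out in CD163_FL and 630 in CD163_NC, 28.9% of B or plasma barcodes had an Ighv UMI in CD163_FL and 29.0% in CD163_NC, against 44.7% and 49.5% before thinning in CD163_FL and CD163_NC. At that depth 1.04% of 2201 T cell barcodes had one in CD163_FL and 4.23% of 1277 in CD163_NC. Both classes were drawn anew from the thinned counts, with 2352 B or plasma barcodes in CD163_FL and 3270 in CD163_NC. The shares before and after thinning are therefore of different sets of barcodes. In barcodes with at least 500 Igha UMIs, 2.97% of 1583 had no Ighv UMI in CD163_FL and 1.11% of 1620 in CD163_NC. The same barcodes gave 5.66 Ighv UMIs per 1000 Igha UMIs in CD163_FL and 12.4 in CD163_NC. T cell transcripts (at least 2 summed Cd3 UMIs) were present in 25.9% of the B or plasma barcodes of CD163_FL and 19.6% of those of CD163_NC, and in 12.6% and 13.7% of the cells with at least 3 Ighv UMIs in CD163_FL and CD163_NC. Their part in the assignments was not tested; without such barcodes 46.8% of CD163_FL and 45.5% of CD163_NC could be assigned. The libraries shared 49 barcode sequences, 9 of them assigned in CD163_FL and 13 in CD163_NC.

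Usage was broad in both libraries, with a few segments well above the rest. CD163_FL used 93 segments and CD163_NC 98, of which 88 were used in both. That left 5 used in CD163_FL alone, in 6 cells, 10 used in CD163_NC alone, in 30 cells, and 82 genes used in neither. The most frequent of those used in CD163_NC alone were Ighv1-31 with 11 cells and Ighv2-4 with 8. The 10 leading segments held 41.0% of the cells of CD163_FL and 39.2% of those of CD163_NC. The effective number of segments (the inverse of the summed squared shares, equal to the count if all were used alike) was 35.0 in CD163_FL and 40.3 in CD163_NC. Over the 103 segments used in either library, shares in the libraries had a Spearman rho of 0.865 and a Pearson r of 0.787, as a description of segments that share an annotation and an alignment. The lower of the 2 shares, summed over segments, came to 76.6%.

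Ighv1-81 was the leading segment of CD163_FL, with 181 cells (9.44%, 8.17 to 10.8), against 125 cells (4.98%, 4.17 to 5.91) in CD163_NC. Ighv1-72 led CD163_NC: it was assigned to 54 cells of CD163_FL (2.82%, 2.12 to 3.66) and to 170 of CD163_NC (6.78%, 5.83 to 7.83). Ighv1-82 had 92 cells in CD163_FL and 104 in CD163_NC, Ighv1-26 had 88 in CD163_FL and 106 in CD163_NC, and Ighv1-9 had 50 in CD163_FL and 113 in CD163_NC. All 5 belong to the Ighv1 family, which holds the most genes. Ighv9-3 was assigned to 77 cells of CD163_FL and 64 of CD163_NC. Intervals of the libraries did not overlap for Ighv1-81, Ighv1-72 and Ighv1-9, and did for Ighv1-82, Ighv1-26 and Ighv9-3.

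**Figure D2:**
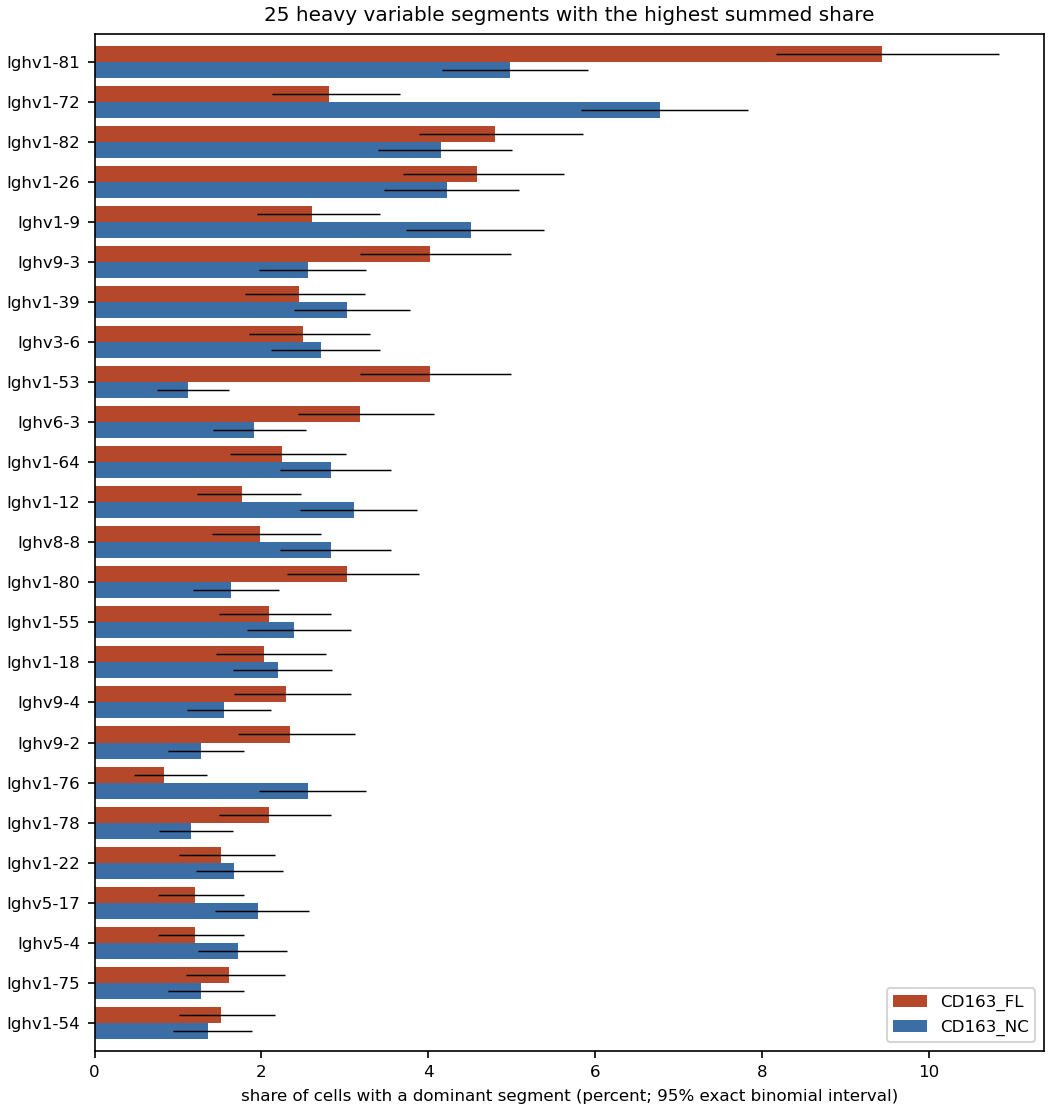
Share of assigned cells (x axis, percent) for the 25 segments with the highest summed share, in CD163_FL and CD163_NC, with exact binomial 95% intervals that cover counting error only. Ighv1-81 reaches 9.44% in CD163_FL and Ighv1-72 reaches 6.78% in CD163_NC.

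By family, Ighv1 held most of the cells, with 61.7% (59.5 to 63.9) in CD163_FL and 63.5% (61.6 to 65.4) in CD163_NC, through 45 and 51 of its 93 genes in CD163_FL and CD163_NC. The Ighv9 family, with 4 genes, held 8.92% (7.68 to 10.3) in CD163_FL and 5.98% (5.08 to 6.98) in CD163_NC. The Ighv5 family held 5.79% (4.78 to 6.93) in CD163_FL and 8.29% (7.24 to 9.44) in CD163_NC. Ighv2 held 5.84% (4.83 to 6.98) in CD163_FL and 3.55% (2.86 to 4.35) in CD163_NC. For these 3 smaller families the intervals of the libraries did not overlap, while for Ighv1 and every other family they did. With at least 3 Ighv UMIs, Ighv9 held 8.70% in CD163_FL and 5.76% in CD163_NC, and Ighv2 held 5.33% in CD163_FL and 2.91% in CD163_NC, still without overlap. The interval of Ighv5 then overlapped, at 5.33% (4.24 to 6.60) in CD163_FL and 7.47% (6.22 to 8.88) in CD163_NC. Ighv3, Ighv6 and Ighv8 each held between 2.95% and 4.98% in both libraries. The Ighv11 and Ighv12 families, known from B-1 cell antibodies to phosphatidylcholine, were assigned to 1 and 2 cells in CD163_FL and to 3 and 2 cells in CD163_NC.

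Annotated pseudogenes were almost never the leading segment. They were assigned to 4 cells of CD163_FL and 5 of CD163_NC, although 70 of the 185 genes are pseudogenes. With at least 3 Ighv UMIs, 2 cells of CD163_FL, both with Ighv1-2, and 0 of 1580 in CD163_NC remained, which allows a share of up to 0.233% at the upper exact bound. By position in the locus, segments within 500 kb of Ighv5-1 held 14.2% of cells in CD163_FL and 15.5% in CD163_NC, and those 2000 to 2600 kb away held 29.5% in CD163_FL and 27.6% in CD163_NC. This far stretch held the most cells in both libraries, with 26 of the 185 genes. The stretch from 1000 to 1500 kb held 19.0% (17.3 to 20.9) in CD163_FL and 24.8% (23.2 to 26.6) in CD163_NC. These intervals did not overlap, but they treat cells of 1 clone as independent. The stretch from 500 to 1000 kb held 21.4% (19.6 to 23.3) in CD163_FL and 18.0% (16.5 to 19.5) in CD163_NC, and with at least 3 Ighv UMIs its intervals overlapped, at 21.4% (19.3 to 23.6) in CD163_FL and 18.8% (16.9 to 20.8) in CD163_NC. Between 1500 and 2000 kb the shares were 15.8% in CD163_FL and 14.1% in CD163_NC.

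**Figure D3:**
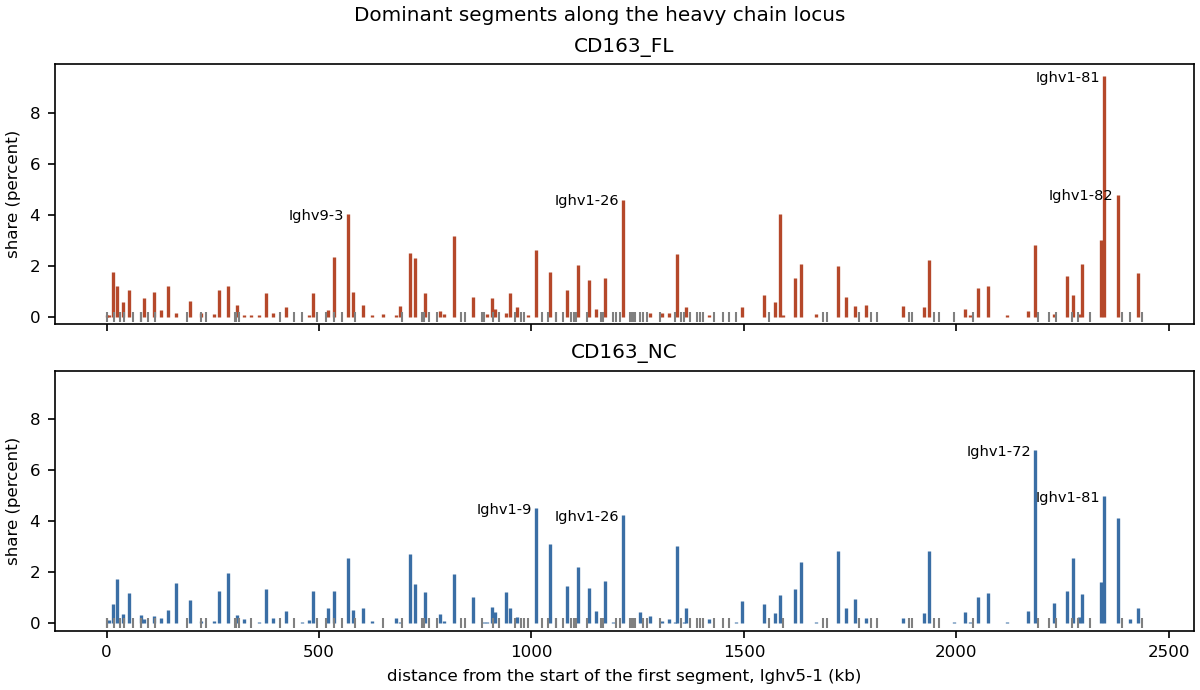
Share of assigned cells (y axis, percent) for each Ighv gene against its distance from the start of Ighv5-1 (x axis, kb), CD163_FL above CD163_NC. Grey ticks mark genes assigned to no cell, and the 4 leading segments are named in each panel. Used segments are spread over the whole locus, with Ighv1-81 and Ighv1-72 near its far end.

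Isotype was taken from the constant region genes: a class needed at least 80% of a cell's heavy constant UMIs and at least 3 of them. IgA cells were by far the most frequent, with 1610 assigned cells in CD163_FL and 1931 in CD163_NC. IgG followed with 182 in CD163_FL and 134 in CD163_NC, and IgM or IgD with 9 in CD163_FL and 10 in CD163_NC. No class was reached by 117 cells in CD163_FL and 433 in CD163_NC, and no cell was assigned to IgE in either. Free Igha RNA bears on these classes, since T cell barcodes had a median of 17 Igha UMIs in CD163_FL and 17 in CD163_NC. After the 99th percentile of each constant gene in T cell barcodes was subtracted, a choice made after seeing the data, IgM or IgD held 72 cells in CD163_FL and 221 in CD163_NC. Of those, 8 in CD163_FL and 9 in CD163_NC had at least 3 Ighv UMIs, so segment usage of unswitched cells was not measurable at this depth. IgA then held 1482 cells in CD163_FL and 1579 in CD163_NC, and IgG 190 in CD163_FL and 174 in CD163_NC.

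Among IgA cells, Ighv1-81 led CD163_FL with 174 cells (10.8%, 9.33 to 12.4), against 102 (5.28%, 4.33 to 6.38) in CD163_NC. Ighv1-72 led the IgA cells of CD163_NC, with 39 cells (2.42%) in CD163_FL and 139 (7.20%, 6.09 to 8.44) in CD163_NC. The next were Ighv1-82 with 77 cells and Ighv1-26 with 76 in CD163_FL, and Ighv1-81 with 102 and Ighv1-9 with 89 in CD163_NC. The effective number of segments in IgA cells was 32.0 in CD163_FL and 38.7 in CD163_NC, and 30.5 and 37.4 with at least 3 Ighv UMIs in CD163_FL and CD163_NC. Subtracting free RNA gave 31.8 in CD163_FL and 37.0 in CD163_NC.

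Among IgG cells, far fewer than IgA cells, Ighv1-72 led CD163_NC as it did among IgA cells, while another segment led CD163_FL. Ighv9-3 led in CD163_FL with 12 cells (6.59%, 3.45 to 11.2), against 3 in CD163_NC, and Ighv1-72 led in CD163_NC, with 10 cells in CD163_FL and 18 (13.4%, 8.16 to 20.4) in CD163_NC. Ighv1-81, the leading IgA segment of CD163_FL, was assigned to 3 IgG cells (1.65%) in CD163_FL and 4 (2.99%) in CD163_NC. Ighv1-82 had 10 IgG cells in CD163_FL and 5 in CD163_NC. Ighv1-39, Ighv1-9 and Ighv6-3 each had 8 IgG cells in CD163_NC, and 8, 4 and 2 in CD163_FL. The effective number of segments in IgG cells was 32.5 in CD163_FL and 23.1 in CD163_NC, from small numbers of cells. The leading IgG gene was Ighg2c in 99 of these cells in CD163_FL and 81 in CD163_NC, and Ighg2b in 75 in CD163_FL and 45 in CD163_NC. Within CD163_FL, IgA and IgG cells overlapped by 62.5% when the lower share of each segment was summed, and within CD163_NC by 66.3%. Spearman's rho of their segment counts was 0.632 in CD163_FL and 0.674 in CD163_NC, over 91 segments in each, as a description.

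To compare the libraries, the share of assigned cells in CD163_FL was divided by that in CD163_NC for the 55 segments with at least 20 cells over both libraries. At 1.5-fold or more, 14 segments (25.5%) were higher in CD163_FL and 12 (21.8%) lower, and 29 lay within 1.5-fold. The counting interval of the ratio lay wholly above 1 for 11 segments and wholly below 1 for 7, and beyond 1.5-fold for 2 above and 5 below. With at least 3 Ighv UMIs, 45 segments had enough cells, and these counts were 6 above and 6 below 1, and 1 above and 3 below beyond 1.5-fold. Because 1 clone can carry a segment, these intervals do not say how mice would differ. The median log2 ratio was -0.12. Both directions together made up 47.3% of the segments, and since only Ighv genes were assigned to cells, the members are their own background here.

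The highest ratio was that of Ighv1-53, an Ighv1 segment near 1585 kb, with 77 cells (4.01%) in CD163_FL and 28 (1.12%) in CD163_NC, 3.60-fold (2.31 to 5.76). Its cells were mostly IgA, 69 in CD163_FL and 22 in CD163_NC, and with at least 3 Ighv UMIs the ratio was 3.15-fold. Ighv2-5 had 19 cells in CD163_FL and 7 in CD163_NC, Ighv2-2 had 34 in CD163_FL and 19 in CD163_NC, and Ighv2-6 had 23 in CD163_FL and 13 in CD163_NC, so 3 of the 5 highest ratios belonged to the Ighv2 family. The ratio was 3.55-fold (1.43 to 9.99) for Ighv2-5, 2.34-fold (1.30 to 4.34) for Ighv2-2 and 2.31-fold (1.12 to 4.97) for Ighv2-6. With at least 3 Ighv UMIs, Ighv2-5 had 12 cells in CD163_FL and 3 in CD163_NC, too few for a ratio. The ratio was then 2.77-fold (1.29 to 6.44) for Ighv2-2 and 1.71-fold for Ighv2-6, whose interval included 1. The closest gene to both Ighv2-2 and Ighv2-5 was Ighv2-4, at 97.7% identity, which was assigned in CD163_NC alone. The part of reads split between these near copies was not tested. Ighv1-85, at the far end of the locus, had 33 cells in CD163_FL and 15 in CD163_NC, 2.88-fold (1.52 to 5.70). Ighv1-81 itself was 1.89-fold higher in CD163_FL, with an interval wholly above 1.

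The lowest ratios were those of Ighv5-9-1, Ighv1-5 and Ighv1-74. Ighv5-9-1 was assigned to 3 cells in CD163_FL and 40 in CD163_NC, a log2 ratio of -3.35 (0.0981-fold, 0.0194 to 0.308). Ighv1-5 had 3 cells in CD163_FL and 31 in CD163_NC (log2 -2.98), and Ighv1-74 had 2 in CD163_FL and 20 in CD163_NC (log2 -2.93). Next came Ighv1-76, with 16 cells in CD163_FL and 64 in CD163_NC (log2 -1.61), and Ighv1-72, with 54 in CD163_FL and 170 in CD163_NC (log2 -1.27, 0.415-fold, 0.300 to 0.567). Of the cells of CD163_NC, 20 with Ighv5-9-1, 18 with Ighv1-5, 12 with Ighv1-74, 30 with Ighv1-76 and 127 with Ighv1-72 had at least 3 Ighv UMIs. In CD163_FL 3, 2, 1, 11 and 40 did, in the same order.

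**Figure D4:**
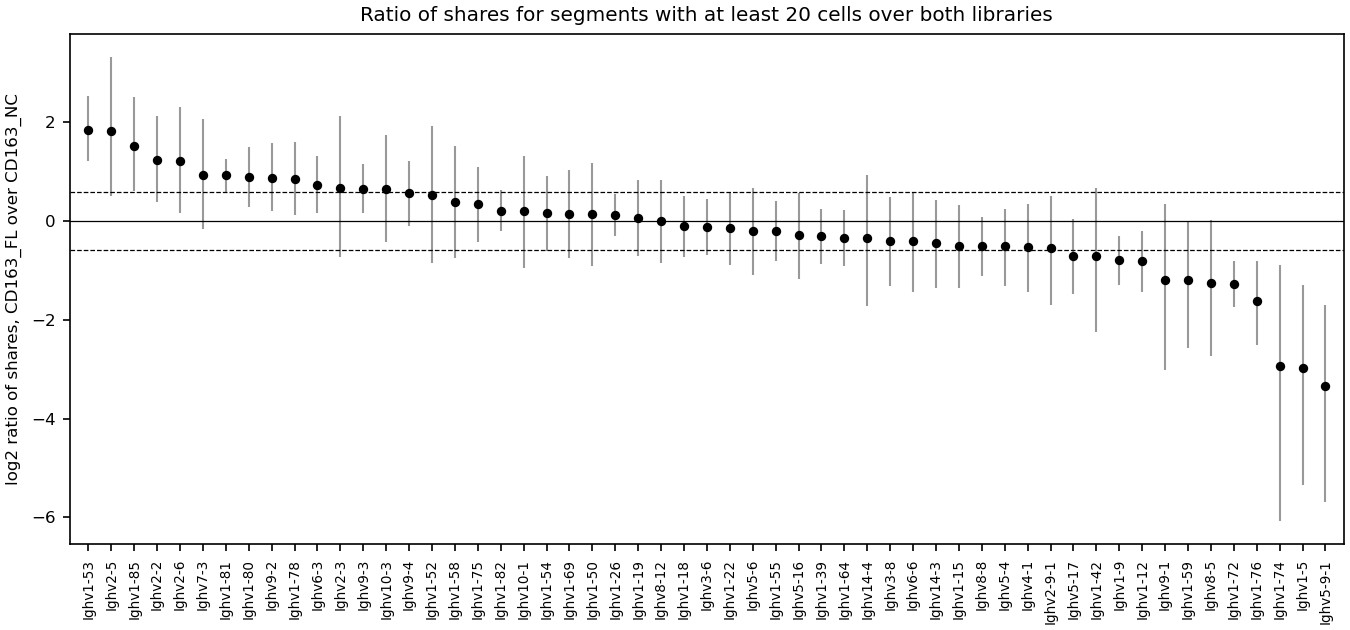
Log2 ratio of the share of assigned cells, CD163_FL over CD163_NC (y axis), for the 55 segments with at least 20 cells over both libraries (x axis, ordered by ratio). Points are ratios, lines are 95% counting intervals, and dashed lines mark 1.5-fold. Ighv1-53 stands highest, and Ighv5-9-1, Ighv1-5 and Ighv1-74 stand lowest.

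Measured as UMI levels instead of cells, Ighv transcripts were lower in CD163_FL. In the B or plasma barcodes all Ighv genes together stood at 565 CPM (counts scaled to the summed UMIs of these barcodes) in CD163_FL and 861 CPM in CD163_NC, 0.656-fold. Of the 185 genes, 97 had at least 20 UMIs over both libraries; 12 of these were at least 1.5-fold higher in CD163_FL and 58 at least 1.5-fold lower. Among all 17135 genes that passed the same limit, 11.7% were higher and 22.9% lower. The median log2 ratio was -0.85 for the Ighv genes and -0.13 for all genes. Of the Ighv genes that did not pass, 58 had no UMI in the B or plasma barcodes of either library. Ighv1-81 was at 56.4 CPM in CD163_FL and 50.5 CPM in CD163_NC, and Ighv1-72 at 8.38 CPM in CD163_FL and 33.0 CPM in CD163_NC. Ighv2-6 was at 8.08 CPM in CD163_FL and 7.96 CPM in CD163_NC, a log2 ratio of 0.02, while as a share of all Ighv UMIs, a measure chosen after seeing the data, its log2 ratio was 0.63. Ighv1-82 was at 23.3 CPM in CD163_FL and 29.3 CPM in CD163_NC. In these pooled levels alone, fewer cells that use a segment and less RNA per cell cannot be told apart. Assigned cells with at least 3 Ighv UMIs made up 32.0% of B or plasma barcodes in CD163_FL and 27.6% in CD163_NC. They held a median of 14 Ighv UMIs in CD163_FL and 24 in CD163_NC. The part of either in the lower summed level was not tested.

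Some barcodes held a further segment beside the leading one. Among B or plasma barcodes with at least 3 Ighv UMIs, 522 in CD163_FL and 788 in CD163_NC had UMIs of another Ighv gene. In 33.9% of these in CD163_FL and 40.2% in CD163_NC both genes belonged to the same family. Ighv1 alone held 61.7% of assigned cells in CD163_FL and 63.5% in CD163_NC, so these shares do not mark same-family pairs as frequent. The most frequent pair of CD163_FL was Ighv1-80 with Ighv1-81, in 20 barcodes of CD163_FL, with Ighv1-80 ahead in 14, and in 10 of CD163_NC, with Ighv1-80 ahead in 7. These are neighbours in the locus, and the stretches shown above differ at 33 bases. The lesser of them had a median of 4.5 UMIs in CD163_FL and 2 in CD163_NC. The most frequent pair of CD163_NC was Ighv1-72 with Ighv1-62-3, in 17 barcodes, where Ighv1-72 led in all 17 and Ighv1-62-3 had at most 3 UMIs. The coding parts of these genes differ at 3 of 351 aligned bases. Ighv1-81 with Ighv1-82 occurred in 7 barcodes of CD163_FL, Ighv1-53 with Ighv3-6 in 6 and Ighv1-66 with Ighv1-75 in 6. In CD163_NC Ighv1-12 with Ighv1-81 and Ighv1-58 with Ighv8-8 occurred in 6 each. The part of sequence likeness in such pairs was not tested.

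Light chain V segments were assigned in the same way, from Igkv and Iglv genes, in cells with at least 3 heavy and 3 light V UMIs. Of the 1482 assigned cells of CD163_FL with at least 3 Ighv UMIs, 533 (36.0%) had such a light segment at 80% or more. Of the 1580 of CD163_NC, 678 (42.9%) did. Most cells below that limit had Iglv1, a lambda segment, as their leading or next light segment (89.1% of 923 in CD163_FL and 86.4% of 891 in CD163_NC), with a median of 12 Iglv1 UMIs where it came next in CD163_FL and 17 in CD163_NC. The cause was not tested. With a limit of 50%, 91.8% of the 1482 cells in CD163_FL and 92.8% of the 1580 in CD163_NC had a light segment. A V pair is not a clone call, since these reads hold no junction sequence. T cell barcodes had a light V UMI in 15.6% in CD163_FL and 31.6% in CD163_NC, and at least 3 in 0.249% and 1.57% in CD163_FL and CD163_NC.

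Some heavy segments were found mostly with a few light segments. Ighv1-81 was found with Igkv1-117 in 33 of 63 cells in CD163_FL and 21 of 56 in CD163_NC, and with Igkv1-110 in 19 of 63 in CD163_FL and 24 of 56 in CD163_NC. All cells of these pairs were IgA cells. With the 50% limit, Ighv1-81 was found with Igkv1-117 in 52 of 138 cells in CD163_FL and 31 of 85 in CD163_NC. With Igkv1-110 it was then found in 45 of 138 in CD163_FL and 26 of 85 in CD163_NC, so its leading partner in CD163_NC changed. The kappa segments Igkv1-117 and Igkv1-110 are close relatives, with 10 differing bases of 359. Ighv9-4 was found with Iglv1 in 30 of 30 cells in CD163_FL (100%, 88.4 to 100) and in 14 of 17 in CD163_NC (82.4%, 56.6 to 96.2), where Iglv1 held 22.9% of all assigned light chains in CD163_FL and 14.9% in CD163_NC. With the 50% limit it was 32 of 32 in CD163_FL and 15 of 23 in CD163_NC. The partners of Ighv1-9 and Ighv1-53 also depended on the limit. Ighv1-9 was found with Iglv1 in 9 of 15 cells in CD163_FL and 14 of 37 in CD163_NC at the 80% limit, and in 16 of 40 in CD163_FL and 20 of 69 in CD163_NC at the 50% limit, where Iglv1 held 29.2% of all assigned light chains in CD163_FL and 18.1% in CD163_NC. Ighv1-53 was found with Igkv1-117 in 8 of 23 cells in CD163_FL and 5 of 11 in CD163_NC at 80%, and in 10 of 60 in CD163_FL and 5 of 22 in CD163_NC at 50%. At 50% Iglv1, with 14 cells, was its most frequent partner in CD163_FL.

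Among the pairs frequent in CD163_NC were those of Ighv1-72, Ighv5-9-1 and Ighv8-8. Ighv1-72 was found with Igkv17-121 in 1 of 14 cells in CD163_FL and in 35 of 58 in CD163_NC (60.3%, 46.6 to 73.0), 32 of them IgA and 3 IgG. With the closely related Igkv17-127, which differs at 9 of 353 bases, it was found in 1 cell of CD163_FL and 10 of CD163_NC. Ighv1-72 is best known from the antibody response to the hapten nitrophenyl, in which it pairs with the Iglv1 light chain. With Iglv1 it was found here in 2 of 14 cells of CD163_FL and 1 of 58 of CD163_NC. With the 50% limit it was 10 of 36 (27.8%) in CD163_FL, 5 of them IgG, and 5 of 120 (4.17%) in CD163_NC. Neither share was above that of Iglv1 among all assigned light chains at that limit, 29.2% in CD163_FL and 18.1% in CD163_NC. Ighv5-9-1 was found with Iglv1 in 0 of 1 cells in CD163_FL and 16 of 18 in CD163_NC, too few cells in CD163_FL for a comparison. Ighv8-8 was found with Igkv15-103 in 13 of 22 cells in CD163_NC, and in 19 of 40 at the 50% limit. Pairs with at least 5 cells numbered 18 in CD163_FL and 19 in CD163_NC. Of these, 8 were shared, which is 44.4% of those of CD163_FL and 42.1% of those of CD163_NC. They included Ighv1-81 with Igkv1-110 and Igkv1-117, Ighv9-4 with Iglv1, Ighv1-12 with Igkv1-110 and Ighv9-2 with Igkv15-103.

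**Figure D5:**
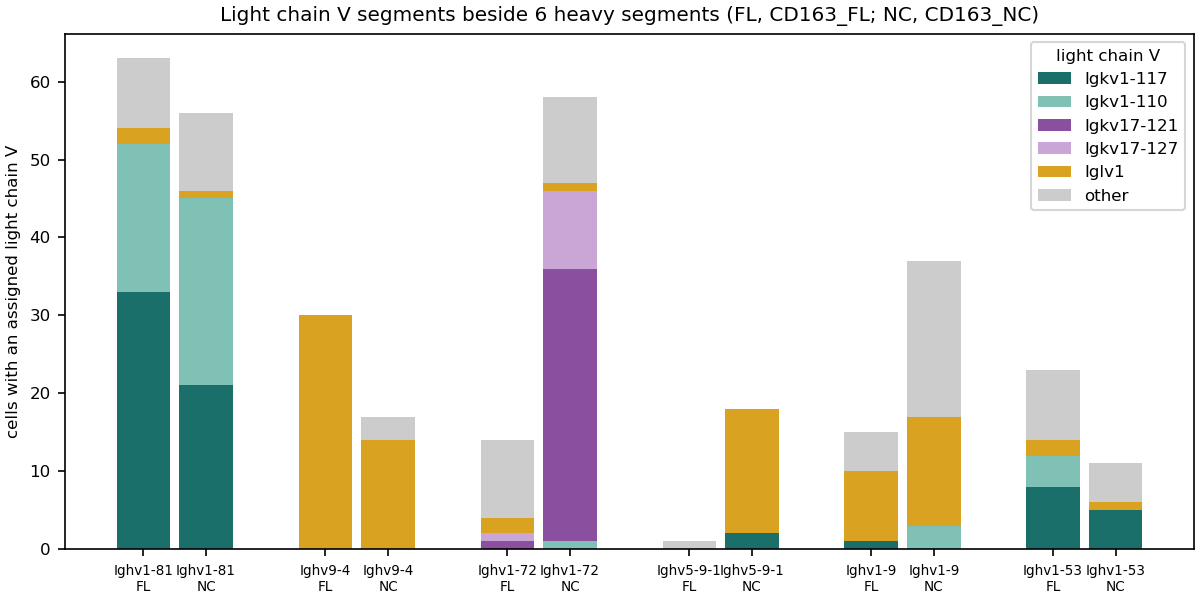
Cells with an assigned light chain V segment (y axis, count) for 6 heavy segments in CD163_FL (FL) and CD163_NC (NC), split by light segment. Ighv1-81 goes with Igkv1-117 and Igkv1-110 in both libraries, Ighv9-4 with Iglv1, and Ighv1-72 with Igkv17-121 in 35 of 58 cells of CD163_NC.

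Genes that build, transcribe and diversify heavy chain variable regions were mostly at lower levels in the B or plasma barcodes of CD163_FL. Of 14 listed genes, 9 were at least 1.5-fold lower in CD163_FL, 0 at least 1.5-fold higher and 5 within 1.5-fold, with a median log2 ratio of -0.68, against -0.13 for all genes and 22.9% of all genes lower. Pax5, a B cell transcription factor that plasma cells switch off, was at 44.8 CPM in CD163_FL and 122 CPM in CD163_NC. The recombinase genes Rag1 and Rag2 had 0 and 1 UMIs in CD163_FL and 31 and 27 in CD163_NC. Dntt, which adds bases at the V(D)J junctions, had 13 in CD163_FL and 256 in CD163_NC. Few barcodes carried these UMIs: Dntt was detected in 0.129% of B or plasma barcodes in CD163_FL and 0.525% in CD163_NC, and Rag1 in 0.227% in CD163_NC. Pou2af1, a coactivator at the octamer motif of V promoters, was at 258 CPM in CD163_FL and 228 CPM in CD163_NC.

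The B cell gene Ms4a1 moved with these values in the same barcodes, at 40.4 CPM in CD163_FL and 150 CPM in CD163_NC. Its part in the lower pathway genes was not tested. Among cells with at least 3 Ighv UMIs, 12 of the 14 genes could be compared, with 4 lower in CD163_FL, 0 higher and a median log2 ratio of -0.15. Among all 14285 genes compared in these cells, 12% were higher and 18.2% lower (30.2% either way), with a median of -0.05. In these cells Pou2af1 was at 353 CPM in CD163_FL and 268 CPM in CD163_NC, and Pax5 at 1.44 CPM in CD163_FL and 8.11 CPM in CD163_NC.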

How the data were processed

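UMI counts per gene and barcode were used as deposited: per the file headers the authors made the count matrices with Cell Ranger 7.1.0. They are its filtered matrices. Their processing notes list mm10 and Seurat 4 without a role. For the annotation release and free RNA correction, the sources used here give nothing. All deposited barcodes entered the main values, and no doublets were removed. A cell filter (at least 500 UMIs, 200 genes and at most 10% mitochondrial UMIs) and Scrublet, run in scanpy 1.11.5 with expected rates of 12.2% for CD163_FL and 8.31% for CD163_NC, were alternatives. Scrublet called 665 barcodes (4.36%) in CD163_FL and 308 (2.97%) in CD163_NC, below those rates.

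Segments were matched by identifier to GENCODE M21 (185 of 185), and coding sequences were aligned with Biopython 1.88. Shares carry Clopper-Pearson intervals, levels are CPM of UMIs summed over B or plasma barcodes, and ratios of counts carry conditional binomial intervals (scipy 1.17.1, numpy 2.4.6, pandas 2.3.3, Python 3.11.15). A count of 0 was set to 3 in ratios. The steps were checked on simulated barcodes, with Ighv totals drawn from assigned cells with at least 3 Ighv UMIs and with free RNA added. The simulation held no cells with fewer Ighv UMIs and no reads misplaced between near copies, so it does not bear on those. Named segments were the 3 leading ones per isotype and library with at least 50 cells, the 5 highest and lowest ratios, and the 5 leading pairs; ties were kept. Other segments named, the 6 heavy segments with listed light partners among them, were chosen after their values were seen. Members, gene lists and rules were chosen with earlier results of these data known. Some genes of the lists are not reported here. The matrices hold 0 columns of other samples.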

Additional observations from a re-analysis of the deposited data

Results flagged for a closer look

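Ighv UMIs were found outside the B or plasma barcodes, in T cell barcodes that should lack them. At least 1 Ighv UMI was present in 8.45% of T cell barcodes in CD163_FL and in 18.7% in CD163_NC. These UMIs numbered 548 in CD163_FL and 590 in CD163_NC.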

How the results depend on the processing

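With 1 library per group no replicate could be left out, and no test or spread between animals exists. No paired analysis was possible because each group has 1 library and the labels give no replicate numbers. Of 230 alternative summary values 196 stayed within counting error or 1.5 times the main count and 34 moved; of 224 alternative log2 ratios of named segments 210 stayed and 14 moved, and no ratio past 1.5-fold changed sign, while those of Ighv1-82 and Ighv1-26, within 1.5-fold, did. Values are given for CD163_FL, then CD163_NC. Assigned cells were 994 and 1299 with at least 10 Ighv UMIs, 659 and 907 after thinning to 1000 UMIs, and 1580 in CD163_NC with at least 3. The assigned share was 32.0% and 27.6% with at least 3 Ighv UMIs, 21.5% and 22.7% with at least 10, 44.6% and 48.8% at a 50% limit, 36.1% and 38.5% at 95%, 46.8% and 45.5% without Cd3 barcodes, 28.0% and 27.7% after thinning, and 57.3% and 51.0% with at least 2 marker UMIs. Which library had the higher share thus depended on the setting. The share after thinning is of the 2352 and 3270 barcodes that met the marker rule in the thinned counts. The Ighv1 family held 58.9% of CD163_FL with at least 10 Ighv UMIs, and 58.4% and 60.0% after thinning. Among IgA cells Ighv1-81 held 12.5% of CD163_FL after thinning, and Ighv1-72 held 5.44% of CD163_NC with at least 10 Ighv UMIs, 5.93% at the 95% limit and 5.07% after thinning. Segments past the fold, higher and lower in CD163_FL, numbered 14 and 12 of 55 in the main comparison and 6 and 7 after thinning. At 2-fold 5 of the 55 were higher. Thinning also left fewer assigned cells, and the cause of the fall in its counts was not tested. With no minimum of cells, 30 and 29 of 103 segments were past the fold. There, setting a count of 0 to 3 can reverse the direction of a segment with few cells, so these counts do not give directions. Among the 97 genes with at least 20 UMIs over both libraries, 29 and 39 were past the fold by share of Ighv UMIs, and 58 were lower by CPM. Counts from sets of different size are not comparable. Filtering cells and removing doublets moved none of these values. Leaving out shared barcodes moved neither the assigned cells and shares nor the ratios. Subtracting free RNA moved no effective number or leading share of IgA or IgG cells, but raised IgM or IgD to 72 and 221 cells, against 9 and 10. By CPM, Ighv1-81 had a log2 ratio of 0.16 and Ighv2-6 of 0.02. The free RNA, shared barcode and Ighv UMI alternatives were chosen after seeing the data. IgM or IgD cells were too few for usage values.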
